A study of Schmidtea mediterranea with 24 samples.

Results

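The step from 2 to 4 days of regeneration was examined in control fragments of the planarian Schmidtea mediterranea by RNA sequencing. It was described over every transcript contig that passed edgeR's filterByExpr on the 8 libraries of this step, which left 18560 of the 28069 contig IDs in the table of counts. The animals were asexual, of the clonal line CIW4, and had been given 6 feedings with double-stranded RNA against egfp, which served as the control. They were starved for 7 days and cut, and RNA was taken from the anterior part of tail fragments 2 or 4 days post-amputation. Each of these 2 groups has 4 biological replicates. Each replicate pooled tissue from 10 tail fragments, so a library averages over animals and holds old tissue beside newly formed tissue. Control fragments had also been fed double-stranded RNA, so no untreated animal is among them. Fragments of the same line fed double-stranded RNA against egr-2, sampled at 0 h, 2 days and 4 days with 4 replicates each, gave libraries in which the same contigs could be followed independently. Control libraries of 0 h are given beside them for single IDs and lists.

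Planarians regrow missing body parts from neoblasts, a population of dividing stem cells that is spread through the body. After amputation the wound closes, neoblasts divide and their progeny collect under the wound epidermis as a blastema, in which new organs differentiate while the old tissue is remodelled. A tail fragment has to form a new head at its anterior end, so the sampled region is where head regeneration takes place. The deposited tables identify contigs by ID only and do not pair the IDs with gene names. No contig is therefore given a name or a function here, and the tissue label was not checked against marker genes. In RNA from whole tissue, fewer cells of a type and less RNA per cell cannot be told apart.

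The 2 day libraries held between 17658036 and 23924158 counts, and those of 4 days between 23724985 and 30829850, so depth moved with time (exact permutation test of the means, two-sided, p = 0.057). Results that could follow depth are therefore also given for counts thinned at random to 17658036 per library. The first principal component of log2 CPM, the read count scaled to library size, over the 8 libraries held 51.9% of the variance and separated all 4 day from all 2 day libraries. The median SD of log2 CPM between replicates was 0.12 at both time points, and no pair of replicates agreed within counting noise. Of the egr-2 RNAi libraries, replicate 1 of 0 h stood apart: its log2 CPM differed from the mean of the other replicates with an SD over contigs of 0.58, against 0.31 to 0.35 for the other 3.

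Between 2 and 4 days 4946 of the 18560 contigs changed, 26.6% of those tested, by edgeR's quasi-likelihood test at a Benjamini-Hochberg adjusted p below 0.05. Of these, 2566 rose (13.8%) and 2380 fell (12.8%). Most changes were small: 4390 of the called contigs, 88.8%, changed by less than 2-fold, and the median absolute log2 fold change of all calls was 0.37. The contigs that rose did so by a median of 0.49 on the log2 scale, and those that fell had a median of -0.29. Large rises outnumbered large falls, with 402 contigs higher by 2-fold or more (2.17%) and 154 lower by as much (0.83%), together 3% of those tested. At 8-fold or more the numbers were alike, with 32 higher and 34 lower. Which direction held more calls depended on 1 library, since without 4 day replicate 1 the test called 2535 contigs higher and 2663 lower. With scaling by total counts alone, in place of TMM factors, 2808 contigs were called higher and 2056 lower, so the share of higher calls was 57.7% against 51.9%.

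**Figure D1:**
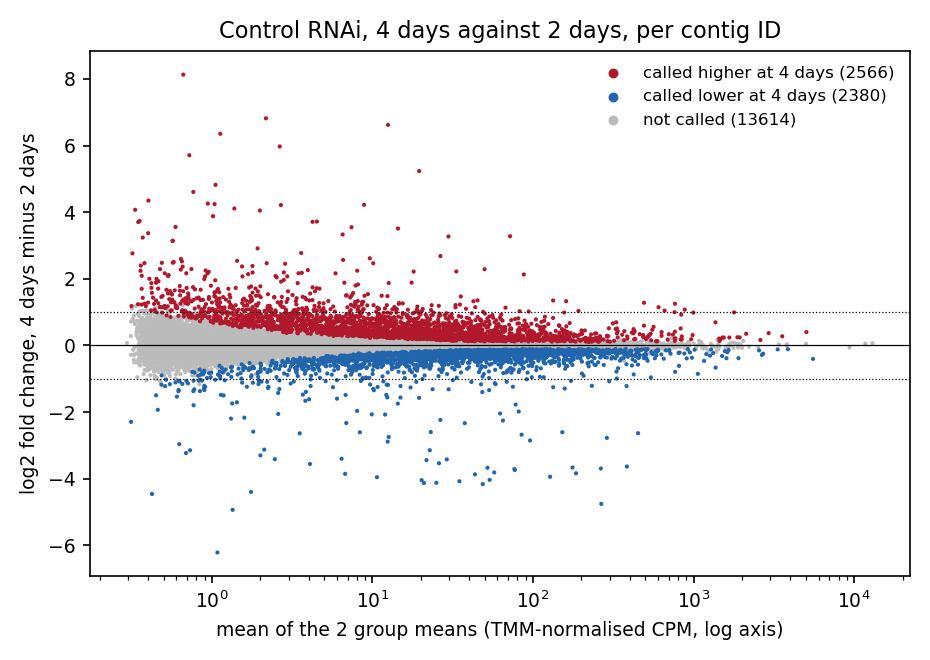
Each point is 1 of 18560 contig IDs, with the mean of the 2 and 4 day group means in CPM on a log axis and the log2 fold change of 4 days minus 2 days on the vertical axis. Dotted lines mark a 2-fold change; the 2566 called rises and 2380 called falls lie mostly inside them.

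The contigs that rose held 12.9% to 13.1% of all counts in the 2 day libraries and 17.0% to 17.4% in the 4 day libraries. The contigs that fell held 25.1% to 25.4% before, in the 2 day libraries, and 20.3% to 20.8% afterwards. The groups did not overlap for either set, but both were chosen on these libraries, so these shares are a description of their size. The CPM of 5099 contigs, 27.5% of those tested, did not overlap between the time points, with 2616 (14.1%) higher and 2483 (13.4%) lower at 4 days.

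The contigs named here are, in each direction, the one with the largest fold change and the one with the largest difference in CPM among called contigs of at least 1 CPM with no overlap between the groups. For rises 2074 contigs met that condition, and for falls 1952. Among those rises, the largest fold rise was that of dd_Smed_v6_1700_0_1, a contig of 325 bases. Its read counts were 0, 1, 0 and 2 in the control libraries of 2 days, and those of 4 days had 95, 208, 132 and 99 reads. In CPM the range was 0 to 0.079 before and 3.09 to 6.36 afterwards. It was thus close to undetected in every 2 day library and present in every 4 day library. The ratio of the pooled CPM was 129, with an exact 95% interval of 44.0 to 629 that covers counting error only (edgeR's quasi-likelihood test, adjusted p of 2.2e-08). The same contig had 0 reads in all 4 control libraries of 0 h and in all 8 egr-2 RNAi libraries of 0 h and 2 days. In egr-2 RNAi fragments at 4 days it stood at 1.63 ± 0.22 CPM, against 4.31 ± 1.42 CPM in control fragments (SD, n = 4). From 2 to 4 days its log2 fold change was 6.82 in control fragments (SE 0.47). It was 8.35 in egr-2 RNAi fragments (SE 0.68, edgeR adjusted p of 5.5e-08), where the 2 day libraries had 0 reads. The difference between the steps was 1.58 (SE 1.38) and was not called (edgeR adjusted p of 0.75).

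The largest gain in CPM among the same contigs was that of dd_Smed_v6_37_0_1, a contig of 1252 bases. Its control values were 4406, 4412, 4293 and 4248 CPM at 2 days and 6042, 5544, 5731 and 5625 CPM at 4 days. The replicates lay close together at 2 days, and the lowest 4 day library was above each of them. The log2 fold change was 0.40 (SE 0.039, edgeR adjusted p of 9.4e-07). The same contig stood at 4477 ± 513 CPM in control fragments at 0 h. The egr-2 RNAi libraries had a mean of 5112 ± 225 CPM at 0 h, 4470 ± 46.5 CPM after 2 days and 5991 ± 258 CPM after 4 (SD, n = 4). From 0 h to 2 days their log2 fold change was -0.18 (edgeR adjusted p of 0.016). From 2 to 4 days it was 0.42 (SE 0.038, edgeR adjusted p of 3.7e-08).

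Of the contigs with a fall that met the condition, the largest in fold was dd_Smed_v6_496_0_1, a contig of 390 bases. It had 24, 54, 76 and 39 reads in the control libraries of 2 days and 0, 2, 0 and 1 reads in those of 4 days. Every 2 day library held at least 1.27 CPM, and no 4 day library held more than 0.061 CPM. The pooled CPM was 88.6 times as high at 2 days as at 4 days, with an exact 95% interval of 29.9 to 433 for counting error (edgeR adjusted p of 4.0e-07). Control fragments of 0 h had a mean of 38.6 ± 6.61 CPM, against 2.14 ± 0.93 CPM 2 days later (SD, n = 4). In CPM the earlier loss was thus the larger one, while on the log2 scale the authors' deposited table gives -4.17 from 0 h to 2 days and implies -6.19 from 2 to 4 days. The means of egr-2 RNAi fragments were 62.5 ± 1.22, 1.88 ± 0.42 and 0.093 ± 0.070 CPM in order of time (SD, n = 4). There the log2 fold changes were -5.06 from 0 h to 2 days and -4.27 from 2 to 4 days, so the earlier loss was the larger one on that scale too.

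The largest loss in CPM among them was that of dd_Smed_v6_91_0_1, a long contig of 12342 bases. Its control values were 6425, 6631, 5642 and 6529 CPM at 2 days and 4121, 4363, 5221 and 5379 CPM at 4 days. The groups did not overlap, but the replicates of 4 days were widely spread, and the highest of them, at 5379 CPM, came near the lowest of 2 days, at 5642 CPM. The log2 fold change was -0.40 (SE 0.076, edgeR adjusted p of 6.9e-04). At 0 h the contig stood at 4425 ± 581 CPM in control fragments (SD, n = 4), so the 2 day mean of 6307 CPM was the highest of the 3 time points. The egr-2 RNAi libraries of both times overlapped, at 5842 ± 627 and then 5455 ± 625 CPM (SD, n = 4), and their log2 fold change of -0.10 did not pass the test (SE 0.070, edgeR adjusted p of 0.30). The difference between the steps in the 2 RNAi conditions was 0.30 (SE 0.12) and was not called either (edgeR adjusted p of 0.35).

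**Figure D2:**
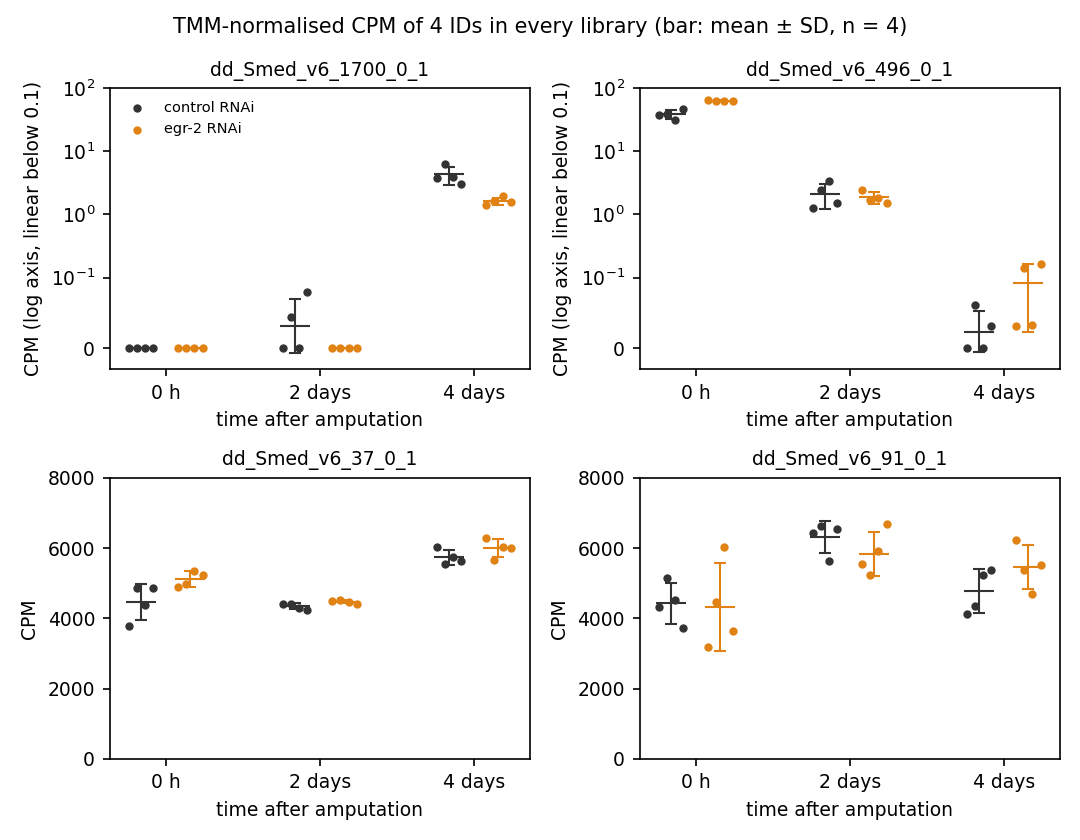
CPM of the 4 named contigs in each of the 24 libraries by time after amputation, with control RNAi in black and egr-2 RNAi in orange; points are libraries, bars are the mean ± SD of 4. The upper axes are logarithmic above 0.1 CPM and linear below; dd_Smed_v6_1700_0_1 appears at 4 days, while dd_Smed_v6_496_0_1 falls at each step, from 38.6 to 2.14 and 0.023 CPM in control fragments.

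How this step relates to the one before it was described through libraries that the control step does not use. Contigs called from 0 h to 2 days in egr-2 RNAi fragments were taken as lists and followed from 2 to 4 days in control fragments. That earlier step called 47.1% of 17518 contigs, 23.5% higher and 23.6% lower, and with a limit of 2-fold 4.02% higher and 6.05% lower. Of the 17383 contigs tested in both, 2433 rose and 2370 fell (13.6%) in the control step, with a median log2 fold change of -0.0053. Of the 4108 contigs that had risen from 0 h to 2 days, 1248 (30.4%) fell and 490 (11.9%) rose in the control step, with a median of -0.088. Of the 4063 contigs that had fallen from 0 h to 2 days, 781 (19.2%) rose and 418 (10.3%) fell, with a median of 0.032. In both lists, calls opposite to the early change outnumbered calls in the same direction. Of the 9212 contigs not called from 0 h to 2 days, 1162 (12.6%) rose and 704 (7.64%) fell, with a median of 0.0145. More rises than falls were therefore not particular to the contigs that had fallen early.

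The shares were larger for contigs with a stronger early change. Among 701 contigs that had risen at least 2-fold by 2 days, 258 (36.8%) fell and 98 rose in the control step, with a median of -0.21. Among 989 that had fallen at least 2-fold, 263 (26.6%) rose and 113 (11.4%) fell, with a median of 0.12. Of the 169 contigs that had risen at least 4-fold, 74 fell and 26 rose. The 277 contigs that had fallen at least 4-fold moved both ways, since 94 of them (33.9%) rose and 64 (23.1%) fell, and 45 of those 64 fell at least 2-fold once more. Without replicate 1 of egr-2 RNAi at 0 h, the library that stood apart, the list of early rises held 28.5% falls and 11.4% rises, and the list of early falls held 19.0% rises and 10.3% falls.

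**Figure D3:**
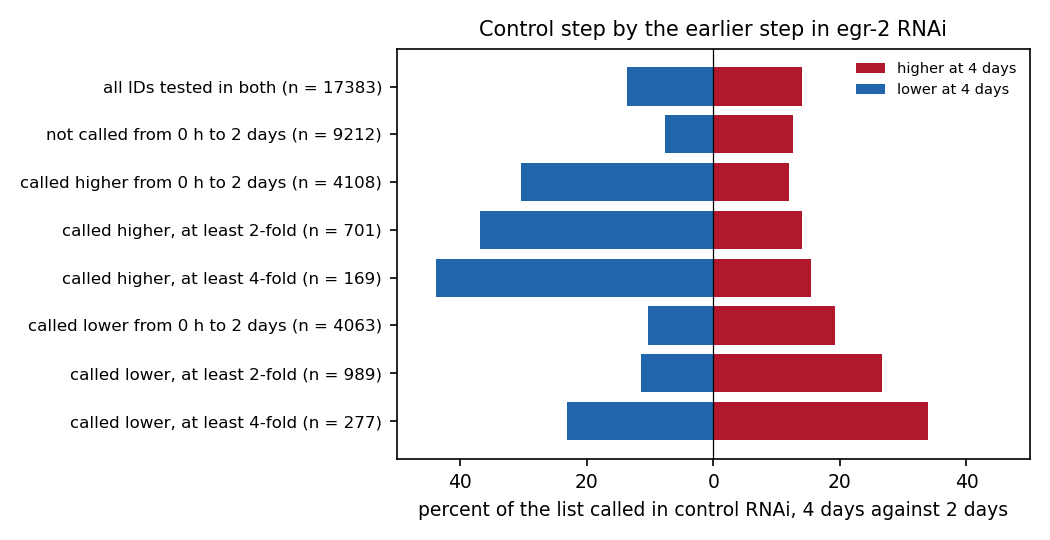
Each bar is a list of contigs defined by the step from 0 h to 2 days in egr-2 RNAi libraries; red is the percent of the list called higher and blue the percent called lower in control RNAi at 4 days against 2 days. The lists of early rises extend to the lower side, up to 43.8% of the list at 4-fold, while the list of at least 4-fold early falls has wide bars on both sides, with 33.9% higher and 23.1% lower.

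The contigs with the largest changes were sorted by their earlier step in egr-2 RNAi fragments. They had been chosen on the control libraries of 2 and 4 days, so the direction of the control medians between these times was fixed by the choice. The medians are given as a description of the sets, and control libraries of 0 h took no part in the choice. Of the 402 contigs at least 2-fold higher at 4 days, 147 had not been called from 0 h to 2 days in egr-2 RNAi fragments. The median contig of this set stood at 1.26 CPM at 0 h, 1.16 CPM at 2 days and 3.04 CPM at 4 days in control fragments, so it was near its starting level at 2 days. Another 78 had fallen before, and the control medians of these were 33.8, 1.65 and 5.78 CPM at the 3 time points, a partial return. A further 60 had already risen, with control medians of 2.22, 4.74 and 12.1 CPM at the 3 time points. The other 117 were not tested in the earlier step, because their counts were too low at 0 h and 2 days to pass the filter.

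Of the 154 contigs at least 2-fold lower at 4 days, 77 had risen from 0 h to 2 days in egr-2 RNAi fragments. Their medians in control fragments were 1.34 CPM at 0 h, 9.03 CPM at 2 days and 3.26 CPM at 4 days. This is a transient peak at 2 days with a partial return, and the fall after 2 days was again a condition of the choice. Another 51 had fallen before, with control medians of 435, 27.4 and 4.14 CPM, a decline that went on through both intervals. For these 51 the median log2 fold change of the control step was -3.13, against -1.33 for the 77 with a transient peak. In egr-2 RNAi fragments 50 of the 51 and 71 of the 77 were also called lower from 2 to 4 days, a step that shares its 2 day libraries with the earlier step that sorted them. Over all tested contigs 16.9% were called lower in that step, and of all 2380 control falls 1781 were. The contigs with these falls were short, with a median length of 725 bases for the 154, while the 402 had a median of 1097 bases and all tested contigs one of 1243 bases.

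Among the continuing falls were contigs that had been very abundant before regeneration. Of the 154, 13 had a mean above 1000 CPM in control fragments at 0 h, from 1055 to 8340 CPM. Their means lay between 47.8 and 711 CPM at 2 days and between 4.14 and 57.5 CPM at 4 days, with log2 fold changes of the control step from -4.76 to -2.68. Together these 13 contigs held 4.69% of the normalised counts at 0 h, 0.344% at 2 days and 0.0263% at 4 days in control fragments. In egr-2 RNAi fragments the shares were 4.44%, 0.207% and 0.0187%, and all 13 were called lower from 2 to 4 days. The limit of 1000 CPM was chosen after the values were seen, so the set is given as a description.

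The step from 2 to 4 days in egr-2 RNAi fragments shares no library with the control step and was tested in the same way. It called 5981 of 18485 contigs, 32.4%, of which 2865 were higher (15.5%) and 3116 lower (16.9%). With scaling by total counts alone the share of higher calls was 58.1%, against 47.9% with TMM factors, so the balance of directions in those fragments depends on the scaling. Of the 18177 contigs tested in both RNAi conditions, 3662 were called in both, and 3642 of these changed in the same direction, 1861 higher and 1781 lower. The 3642 are 74.1% of the control calls and 61.1% of the egr-2 RNAi calls. Across contigs, which are not independent replicates, the log2 fold changes of both steps had a Pearson's r of 0.81 and a Spearman's rho of 0.66.

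Most large changes of the control step were also called in egr-2 RNAi fragments. Of 373 contigs at least 2-fold higher in control fragments and tested in both, 371 had the same sign in egr-2 RNAi fragments and 311 were called there, with a median log2 fold change of 1.12 against 1.31 in control. Of 152 at least 2-fold lower, 150 had the same sign and 133 were called, with medians of -1.32 in egr-2 RNAi and -1.45 in control. Chosen the other way round, 347 contigs at least 2-fold higher in egr-2 RNAi fragments had a median of 1.29 there and 1.21 in control, and 152 lower by as much had medians of -1.37 and -1.36. The 311 and 133 are calls at any fold, and at any fold 15.5% of all contigs tested in egr-2 RNAi fragments were called higher and 16.9% lower. With the limit of 2-fold, by which the 347 and 152 were chosen, the shares were 1.92% and 0.866%. Medians were smaller in the set of libraries that had not been used for the choice, whichever set that was. For falls chosen in egr-2 RNAi fragments the medians were nearly equal, at -1.37 and -1.36.

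**Figure D4:**
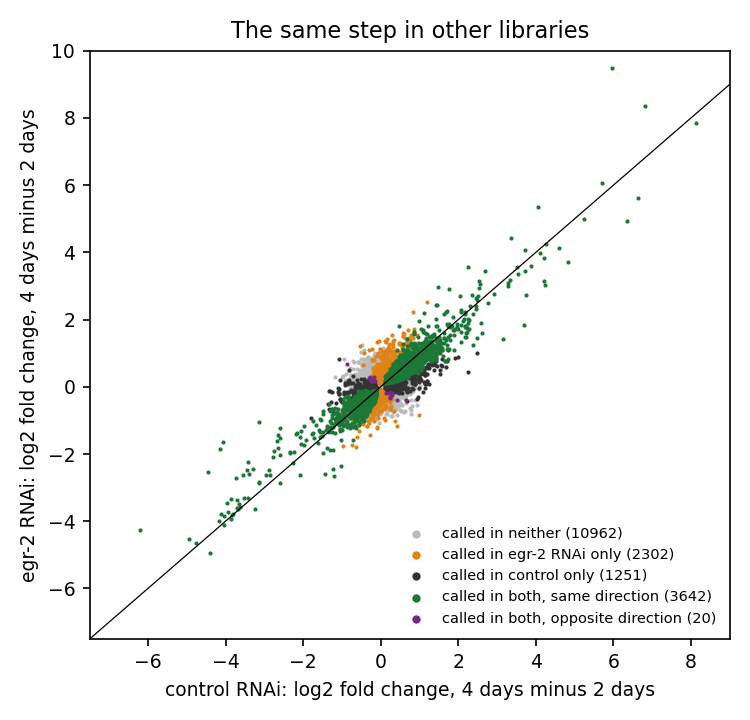
Each point is a contig tested in both RNAi conditions, with the log2 fold change of 4 days minus 2 days in control RNAi on the horizontal and in egr-2 RNAi on the vertical axis; the line marks equal changes. The 3642 contigs called in both with the same direction lie along the line, and 20 were called in both with opposite directions.

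The difference between the steps was tested over the 16 libraries of both RNAi conditions. It was called for 49 of 19436 contigs, 0.252%, while 1922 had an unadjusted p below 0.05. The egr-2 RNAi step was the higher one for 34 of the 49 (0.175%) and the lower one for 15 (0.0772%). Of the 49, 25 were called lower and 11 higher in the control step. The change in egr-2 RNAi fragments was the smaller one in absolute size for 17 of the 25 and for 6 of the 11. Both sets were chosen by their call in the control step, which favours large control changes. The other 13 were not called in the control step, and each of these had the larger absolute change in egr-2 RNAi fragments. Among the 11, dd_Smed_v6_36340_0_1 was not tested in the egr-2 RNAi step. Absolute size ignores direction, and the smaller changes were of both kinds. For dd_Smed_v6_2701_0_1 the log2 fold changes were -0.91 in control and -0.30 in egr-2 RNAi fragments. Those of dd_Smed_v6_1199_0_1 were -0.29 and 0.23, a reversal called in both. The number of calls depended on the test and on single libraries. DESeq2 called 161 contigs, the edgeR likelihood ratio test 175 and the fit of all 24 libraries 18. Leaving out replicate 1, 3 or 4 of the control libraries of 2 days gave 88, 29 or 25 calls, and leaving out control 4 day replicate 3 gave 113. Leaving out replicate 1, 2 or 3 of egr-2 RNAi at 2 days gave 25, 23 or 117, and replicate 2, 3 or 4 of egr-2 RNAi at 4 days gave 24, 31 or 26. The 117 calls without egr-2 RNAi 2 day replicate 3 were split evenly, with 59 higher and 58 lower.

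Rises and falls were spread unequally over contigs with few and many reads. Quintiles of the tested contigs were formed by mean CPM, which counts reads and is not a level per length. In the quintile with the fewest reads, at 0.30 to 1.47 CPM, 258 contigs (6.95%) rose and 71 (1.91%) fell. In the quintile with the most reads, above 52.2 CPM, 499 (13.4%) rose and 914 (24.6%) fell. The median SE of the log2 fold change was 0.31 in the former and 0.046 in the latter, so smaller changes could be called where reads were many. Of the 402 contigs at least 2-fold higher, 177 were in the quintile with the fewest reads, against 41 of the 154 at least 2-fold lower. The order was reversed where reads were many. At 19.8 to 52.2 CPM 18 contigs were at least 2-fold higher and 21 lower, and above 52.2 CPM 13 were higher and 31 lower. With counts thinned to 17658036 per library the shares were 8.01% higher and 2.29% lower in the first quintile, and 13.3% higher and 23.8% lower in the last.

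**Figure D5:**
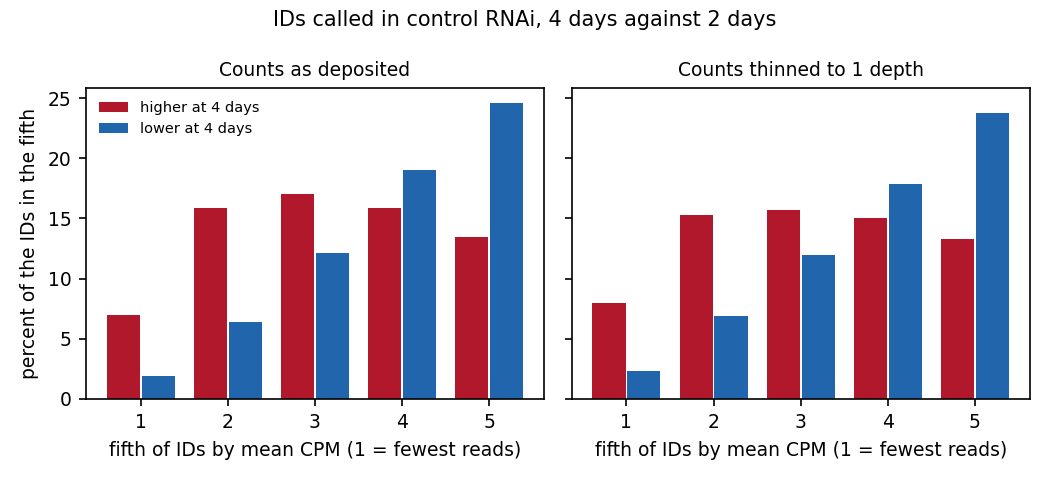
Bars give the percent of contigs called higher (red) and lower (blue) at 4 days in each quintile of the tested contigs by mean CPM, with counts as deposited on the left and thinned to 1 depth on the right. In both panels rises outnumber falls in the first 3 quintiles, and falls outnumber rises in the last ones, with 24.6% lower in the last quintile of the deposited counts.

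More contigs were detected at 4 days. The 2 day libraries had a count for 24749 to 25327 IDs and the 4 day libraries for 25490 to 25957, a difference of the means of 740.2 (exact permutation test, two-sided, p = 0.029, the smallest that 4 against 4 libraries can give). At equal depth the difference was 301, with 24769 ± 52.5 IDs at 2 days and 25070 ± 75.2 at 4 days (SD, n = 4; exact permutation test, p = 0.029), so the difference was smaller at equal depth. Without 2 day replicate 1, the library with the fewest counts, the difference in the deposited counts was 638 and the exact permutation p was 0.057. In the thinned counts 33 contigs had no read in any 2 day library and reads in every 4 day library, and 7 showed the reverse. The 10 most abundant contigs held 6.83% ± 0.040 of the counts at 2 days and 7.01% ± 0.13 at 4 days (SD, n = 4; exact permutation test, p = 0.029). Without 2 day replicate 1, 2, 3 or 4 the exact permutation p of this share was 0.086, 0.11, 0.086 or 0.057, so the call was lost each time.

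The authors' deposited table holds 7 comparisons, and the step from 2 to 4 days is not one of them. It can be obtained from the authors' deposited table as the difference of the control changes from 0 h to 4 days and from 0 h to 2 days. For 16762 contigs that are in the authors' deposited table and were tested here, this value was set against the log2 fold change of the 8 libraries. The median absolute difference was 3.2e-04 and the largest was 0.17. All 4851 of these contigs that were called here had the same sign in the authors' deposited table, which comes from the same libraries. The authors' deposited table gives a log2 fold change of 0.50 for dd_Smed_v6_91_0_1 from 0 h to 2 days, with a false discovery rate of 0.0015, and 0.099 from 0 h to 4 days, with a false discovery rate of 0.58.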

How the data were processed

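The authors deposited raw read counts per transcript contig for 24 libraries, 1 column per library. The authors also deposited log2 fold changes, average log2 CPM and adjusted p-values of 7 comparisons, per the file headers. Per the submitters' processing notes FastQC 0.11.5, Bowtie2 2.3.1, featureCounts and Subread 1.6.3 were used, and the series' design text adds BBDuk and edgeR. The sources used here do not give trimming and strand settings. A contig has no genome position here, and 0 columns of per-sample values were unmatched.

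Contigs were kept by filterByExpr (minimum count 10, minimum total 15) on the 8 libraries compared, which held 99.87% to 99.89% of each library's counts. They were tested with the edgeR 4.0.16 quasi-likelihood test (limma 3.58.1, R 4.3.3) with TMM factors, without a replicate term and with Benjamini-Hochberg adjustment over all contigs tested. The egr-2 RNAi steps were fitted in the same way on their own 8 libraries, and the difference between the steps on 16. Printed CPM use TMM factors of all 24 libraries, and principal components use log2 CPM with a prior count of 2. Standard errors come from the F statistic. Replicates were compared by chi-square tests, with values of 2.53 to 10.2 for each degree of freedom over 24 pairs. Simulated counts were used to test the script. Among 18063 simulated contigs tested, it called 89 of 97 changed 2-fold and 94 of 94 changed 4-fold in the right direction. No smaller change was simulated, so the recovery of changes under 2-fold, which most calls in the data were, was not tested. There were 17 false calls, 8.5% of all calls, at an adjusted p below 0.05.

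Alternatives were RLE or total-count scaling, other filters, DESeq2 1.42.0, a likelihood ratio test, all 24 libraries, a replicate block, thinned counts and leaving out each library. The comparison, lists and rules were chosen with earlier results of these data known. The rule for named contigs took 2 with a rise and 2 with a fall, as the report states, and left out contigs that share a component number with another tested contig. Marker lists could not be used because IDs have no names here.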

Additional observations from a re-analysis of the deposited data

Results flagged for a closer look

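The TMM factor of control 4 day replicate 1 was 0.984, far from the other libraries of its group, which had 1.01 to 1.02. It was the only such library in 32 sets of 4 values examined, where chance gives about 1 in 20. This library also had the lowest total of its group, 23724985 counts, and its part in the result was not tested beyond leaving it out, which gave 5198 calls in place of 4946, of which 48.8% were higher.

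The step from 2 to 4 days differed between egr-2 RNAi and control fragments for 49 contigs by a test of the difference itself.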

How the results depend on the processing

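The number of contigs called in the control step was 4080 to 5198 with 1 library left out and 4371 to 5346 under the other alternatives, within 1.5 times of 4946 in all 17. The number at least 2-fold was 522 to 624 with 1 library left out and 427 to 702 otherwise, and the egr-2 RNAi step gave 5122 to 6038 and 5277 to 6378. The 4 named contigs kept direction and call in each of 17 alternatives. The difference between the steps was called for 80 contigs without a filter, 161 by DESeq2, 175 by the likelihood ratio test, 18 with all 24 libraries, and 23 to 117 with 1 library left out. With the replicate number as a block it was called for 225 contigs, 124 higher and 101 lower, and the control step for 5346. Same-numbered control libraries of 2 and 4 days had correlations of their deviations of 0.023 to 0.096, so they were not treated as pairs, although each 2 day library correlated best with its own number. The median control change of contigs that rose from 0 h to 2 days was -0.21 with a 2-fold limit and -0.066 with total-count scaling, against -0.088, and -0.095 to -0.079 with 1 library left out. For contigs that fell it was 0.12 with a 2-fold limit and 0.053 with total-count scaling, against 0.032, and 0.022 to 0.042 with 1 library left out. With 1 library left out the share of the 10 most abundant contigs differed by 0.132 to 0.231 percentage points (exact permutation p of 0.029 to 0.11), and IDs with a count by 638 to 842 (p of 0.029 to 0.057). Where the number of calls moved, the cause was not tested. Depth limits calls of small changes to contigs with many reads.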

Other observations

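The 20 called contigs with the largest gains in CPM were long, with a median of 3878 bases and 10 of 20 at 4000 bases or more. The 20 with the largest losses had a median of 1668 bases. Together the 20 gains went from 27659 to 38867 CPM and the 20 losses from 29064 to 18996 CPM. Log2 fold changes were 0.16 to 1.28 for the gains and -4.76 to -0.25 for the losses, and 15 of the gains and 18 of the losses were called in the same direction in egr-2 RNAi fragments. Of all called contigs, 1861 of 2566 rises and 1781 of 2380 falls were called in that direction there. The number of 20 was chosen after the values were seen, and longer contigs collect more reads at the same level. Over all called contigs the median length was 1593 bases for rises and 1533 bases for falls.

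Some contigs share a component number in the assembly, and how the counting divided reads between them is not given in the sources. There were 300 such tested contigs in 148 components. In 15 components more than 1 contig was called, and in 11 of these the calls had 1 direction.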
